A study of Rattus norvegicus with 4 samples.

Results

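The 14-3-3 proteins are encoded in the rat by Ywhab, Ywhae, Ywhag, Ywhah, Ywhaq, Ywhaz and Sfn, and these 7 genes were taken from 17245 genes measured in cultured cortical neurons. They were chosen by name. Each had 1 probe set on the array annotated to it alone, so the rule of taking the brightest probe set never had to choose. Ywhag had already been singled out for its difference between the groups compared here. Its values are therefore a description, with no test, and the same applies to counts that include it.

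14-3-3 proteins are small acidic adaptors that act as dimers. Each subunit of a dimer holds a groove that grips a phosphorylated serine or threonine on a client protein, and binding can hide a localisation signal, hold a kinase inactive or keep a client in the cytoplasm. They are abundant in brain. In developing cortex the epsilon form binds the phosphorylated dynein regulator Ndel1 and takes part in neuronal migration, and variants of the human gamma gene are known in childhood epilepsy.

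The study used neurons of Sprague Dawley rat embryos at embryonic day 18, infected with pLL3.7 lentivirus and collected 5 days after infection. The control group (2 arrays) received virus with a control shRNA, and its genotype was labelled wild type. The other group (2 arrays) received PHF6shRNA-2, a short hairpin RNA against the X-linked chromatin protein PHF6, and its genotype was labelled PHF6 knockdown. All 4 samples carried a lentivirus, and only 1 shRNA against PHF6 was used, so loss of PHF6 and other effects of that hairpin cannot be told apart. The duplicates are called biological in the labels, with no statement of separate cultures or animals, so the spread between them may be technical.

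The promoters of 6 of the 7 genes, all but Ywhaz, were matched by symbol in the RefSeq sequences of the GRCr8 assembly. The 250 bases before the start site are shown for the gene with the most negative difference (Ywhag), the next (Ywhaq) and the one with the difference nearest 0 (Ywhae). Capitals mark TGACG or its reverse complement CGTCA, the core of the cAMP response element (CRE). The Ywhag window is chr12:26380969-26381218 on the plus strand, the Ywhaq window chr6:46694876-46695125 on the minus strand and the Ywhae window chr10:61082684-61082933 on the plus strand.
Ywhag: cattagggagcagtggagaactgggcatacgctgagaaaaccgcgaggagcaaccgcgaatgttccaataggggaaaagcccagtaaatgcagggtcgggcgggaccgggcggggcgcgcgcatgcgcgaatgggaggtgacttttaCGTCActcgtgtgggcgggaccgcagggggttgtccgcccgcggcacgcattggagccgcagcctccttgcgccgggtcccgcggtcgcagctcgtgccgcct
Ywhaq: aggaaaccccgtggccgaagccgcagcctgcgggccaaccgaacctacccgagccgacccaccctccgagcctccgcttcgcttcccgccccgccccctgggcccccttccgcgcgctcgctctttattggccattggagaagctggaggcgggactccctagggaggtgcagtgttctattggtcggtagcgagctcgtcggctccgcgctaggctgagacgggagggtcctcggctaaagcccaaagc
Ywhae: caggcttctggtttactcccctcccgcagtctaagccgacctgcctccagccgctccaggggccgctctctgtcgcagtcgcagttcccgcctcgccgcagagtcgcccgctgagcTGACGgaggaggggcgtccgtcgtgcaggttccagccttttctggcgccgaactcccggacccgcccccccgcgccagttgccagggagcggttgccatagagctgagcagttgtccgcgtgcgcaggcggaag

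All 3 windows were GC-rich, at 66.4% (Ywhag), 68.0% (Ywhaq) and 69.2% (Ywhae), against a median of 51.2% over 33469 promoters. The CRE core, searched on both strands, began 103 bases before the start in Ywhag and 134 bases before it in Ywhae, and was not in the Ywhaq window. It occurred in 18.2% of all promoters. Ywhah, not shown, held the full element TGACGTCA at 163 bases, which contains the core on each strand and occurred in 1.59% of all promoters. The GC box GGGCGG, searched on both strands, was present in all 6 windows, with 4 matches in Ywhag, 2 in Ywhaq and 1 in Ywhae, and in 30.5% of all promoters. CCAAT, on either strand, had 2 matches in Ywhag, 3 in Ywhaq and none in Ywhae, and occurred in 34.0% of all promoters. TATAAA was found in Ywhah alone among the 6, and in 12.9% of all promoters. These matches describe letters in a window, and the CRE core was in the window of the gene with the most negative difference and of the gene with the difference nearest 0 alike.

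Values are probe set intensities on a linear scale, with array medians from 40.9 to 41.7. The 206 olfactory and vomeronasal receptor genes, which neurons of the cortex should hardly use, served as background, and their 95th percentile on an array lay between 32.5 and 41.1. All 10 neuronal markers examined, among them Rbfox3, Map2 and Tubb3, exceeded this level on all 4 arrays. The probe set of Phf6, the targeted gene, read 32.8 and 34.3 with control shRNA and 34.4 and 31.3 with PHF6 shRNA. It exceeded the background level on only 1 array, so it could not check the group labels, on which all directions below depend.

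Ywhag, the gamma form, which is enriched in neurons, had lower signal with PHF6 shRNA than with control shRNA on every array. Its probe set (10757599) read 1263 and 1231 intensity units in control duplicates 1 and 2, and 623 and 737 in PHF6 shRNA duplicates 1 and 2. The groups did not overlap, and the control duplicates lay closer together than the PHF6 shRNA duplicates. The mean log2 intensity was 10.28 ± 0.03 with control shRNA and 9.40 ± 0.17 with PHF6 shRNA (SD, n = 2 each). The difference, PHF6 shRNA minus control shRNA, was -0.88 ± 0.11 log2 units (limma SE), or 1.84-fold lower. Over the 4 possible pairs of a PHF6 shRNA and a control array the fold ranged from 1.67 to 2.03. All 4 intensities stood well above background, at 15.6 to 37.9 times the level of their array. Of the 17245 genes, 12 had a difference at or below that of Ywhag, Ywhag included.

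**Figure D1:**
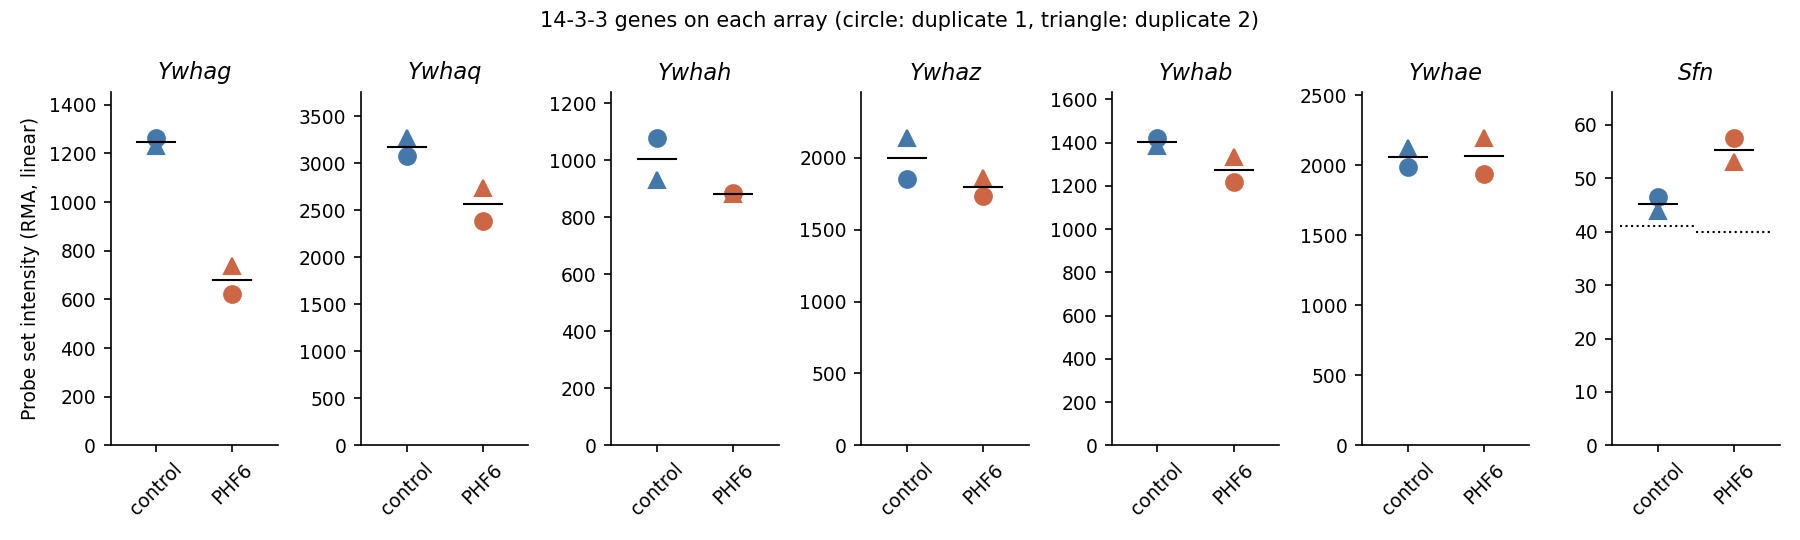
Probe set intensity (linear scale, axes from 0, 1 scale per gene) of the 7 genes on each array, with circles for duplicate 1, triangles for duplicate 2 and bars for group means. Dotted lines in the Sfn panel give the background level of duplicate 1 of each group. Ywhag reads 1263 and 1231 with control shRNA against 623 and 737 with PHF6 shRNA, while Ywhae overlaps between the groups.

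Ywhaq, the theta (tau) form, had the next most negative difference. Its probe set (10889360) read 3075 and 3266 with control shRNA and 2383 and 2740 with PHF6 shRNA. The groups did not overlap, and PHF6 shRNA duplicate 1 was the lowest of the 4. The difference was -0.31 ± 0.10 log2 units, or 1.24-fold lower, with a 95% interval from -0.57 to -0.05. It did not pass the threshold of 0.05 after Benjamini-Hochberg adjustment over all genes (limma adjusted p = 0.39, unadjusted 0.027).

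Ywhah, the eta form, read 1077 and 932 with control shRNA and 883 and 882 with PHF6 shRNA (probe set 10777829). The groups did not overlap, but control duplicate 2 lay nearer to the PHF6 shRNA arrays than to control duplicate 1. The difference was -0.18 ± 0.10 log2 units and did not pass (limma adjusted p = 0.64). Without control duplicate 1 it was -0.08 and without control duplicate 2 it was -0.29.

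Ywhab, the beta form, read 1421 and 1386 with control shRNA and 1218 and 1332 with PHF6 shRNA (probe set 10842052). The groups did not overlap, by a gap of 0.06 log2 units. The difference of -0.14 ± 0.09 did not pass (limma adjusted p = 0.72), and its 95% interval ran from -0.36 to 0.08. It was -0.07 when PHF6 shRNA duplicate 1 was left out.

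Ywhaz, the zeta form, a widely used housekeeping reference, read 1856 and 2138 with control shRNA and 1733 and 1857 with PHF6 shRNA (probe set 10903367). PHF6 shRNA duplicate 2 was just above control duplicate 1, so the groups overlapped. The difference of -0.15 ± 0.11 log2 units did not pass (limma adjusted p = 0.76), with a 95% interval from -0.41 to 0.11. It was -0.25 without control duplicate 1 and -0.05 without control duplicate 2.

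Ywhae, the epsilon form that binds Ndel1, read 1988 and 2127 with control shRNA and 1939 and 2195 with PHF6 shRNA (probe set 10736042). The PHF6 shRNA arrays were the lowest and the highest of the 4. The difference was 0.0050 ± 0.10 log2 units (limma adjusted p = 0.998), with a 95% interval from -0.25 to 0.26, so a change of up to about that size is not excluded by these arrays.

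Sfn, the sigma form or stratifin, known from epithelial cells as a target of p53, was the member with a positive difference beyond the spread of its duplicates. Its probe set (10872572) read 46.5 and 43.9 with control shRNA and 57.5 and 53.1 with PHF6 shRNA, which did not overlap. These intensities were only 1.13 to 1.62 times the background level of their arrays, where fold changes are understated. The difference was 0.29 ± 0.09 log2 units, or 1.22-fold higher, and did not pass (limma adjusted p = 0.36, unadjusted 0.021). Of 6 epithelial markers measured none exceeded background on all 4 arrays, and Epcam, Cdh1 and Krt19 exceeded it on none. Their summed intensity lay between 167 and 172 on every array. Their part in the Sfn difference was not tested.

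The genes were also set against their own control means. In PHF6 shRNA duplicate 1 Ywhag stood at -1.002 log2 units, and the other 5 Ywha genes lay between -0.41 (Ywhaq) and -0.08 (Ywhae), with a mean of -0.22. In PHF6 shRNA duplicate 2 Ywhag stood at -0.76, and the others lay between -0.21 (Ywhaq) and 0.09 (Ywhae), with a mean of -0.10. Ywhag was thus 0.79 and 0.66 log2 units below the mean of the other 5, while the control arrays differed from that mean by 0.03 in either direction. The control values mirror each other because the control mean is the reference, so they are no independent measure of spread. With 2 arrays against 2 an exact permutation test of such a value has 0.333 as its smallest two-sided p, and none was run.

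**Figure D2:**
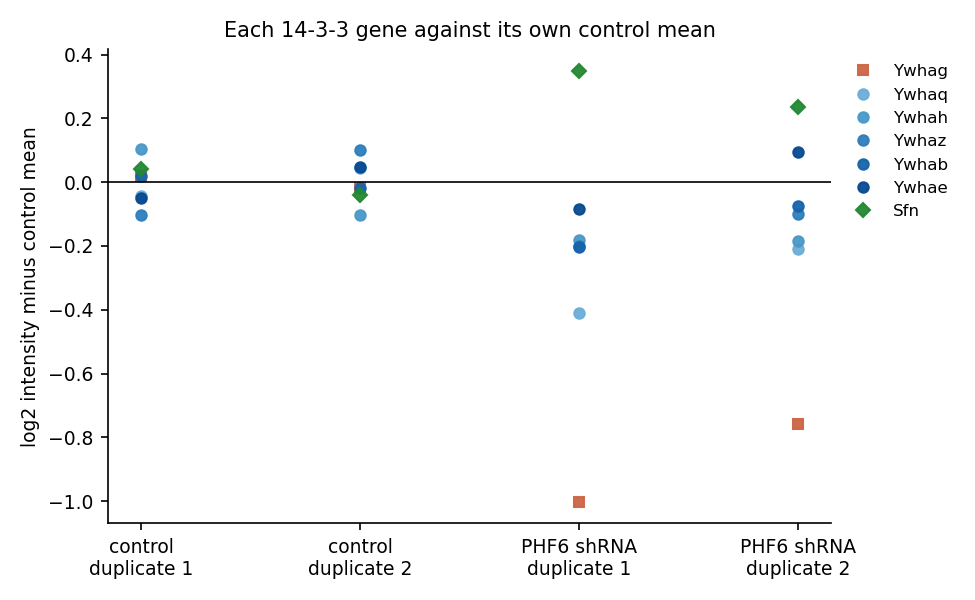
Log2 intensity of each gene minus its own mean over the control arrays (vertical axis), by array (horizontal axis). Ywhag (squares) lies at -1.002 and -0.76 with PHF6 shRNA, apart from the other 5 Ywha genes (circles, -0.41 to 0.09), and Sfn (diamonds) lies at 0.35 and 0.23.

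The duplicates also differed from each other. In the PHF6 shRNA group duplicate 2 read higher than duplicate 1 for Ywhag (by 0.24 log2 units), Ywhaq (0.20), Ywhae (0.18), Ywhab (0.13) and Ywhaz (0.10), was level for Ywhah and lower for Sfn. In the control group duplicate 2 was higher for Ywhaz (0.20), Ywhae (0.10) and Ywhaq (0.09), and lower for Ywhah, Ywhab, Ywhag and Sfn. In at least 1 group the duplicates of Ywhah, Ywhaz and Ywhae were therefore further apart than the group means.

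Over the family, 5 of 7 members had a negative difference, against 52.3% of all genes. The groups' arrays did not overlap for 5 members, 4 lower and 1 higher, where 37.8% of all genes did not overlap (21.7% lower, 16.0% higher). At an unadjusted p under 0.05 stood 3 members (Ywhag, Ywhaq and Sfn), against 10.8% of all genes (7.52% lower, 3.28% higher). The median difference was -0.15 log2 units, against -0.01 over all genes. Without Ywhag, 4 of 6 members had a negative difference and 4 did not overlap, 3 of them lower. Of those 6 members, 2 had an unadjusted limma p under 0.05, and their median difference was -0.145. All 6 Ywha members were among the brightest 25% of genes. Of those 4311 genes 66.0% had a negative difference, the median was -0.08, and 38.9% were lower without overlap. Of the 6 Ywha members 5 (83.3%) had a negative difference and 4 (66.7%) were lower without overlap, Ywhag included. With Ywhag singled out for its difference, these counts were not tested against the shares of bright genes. Ywhag was the only member at least 1.5-fold lower without overlap, as were 0.690% of all genes.

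No member passed an adjusted p under 0.05, and neither did any other gene (0% of 17245, limma, where 1862 had an unadjusted p under 0.05). Of those 1862, 69.7% were lower. At the same level a further quantile normalization gave 1841 genes, 58.0% of them lower, and cyclic loess gave 1808, 53.5% of them lower. With PHF6 shRNA duplicate 2 left out 90 genes passed, and with PHF6 shRNA duplicate 1 left out 2 passed. Those fits take their spread from the control pair and assume that the lone array varies alike. Over 14 alternatives the difference ranged from -1.002 to -0.76 for Ywhag and from -0.41 to -0.21 for Ywhaq. Only leaving out an array or rescaling could move these differences.

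**Figure D3:**
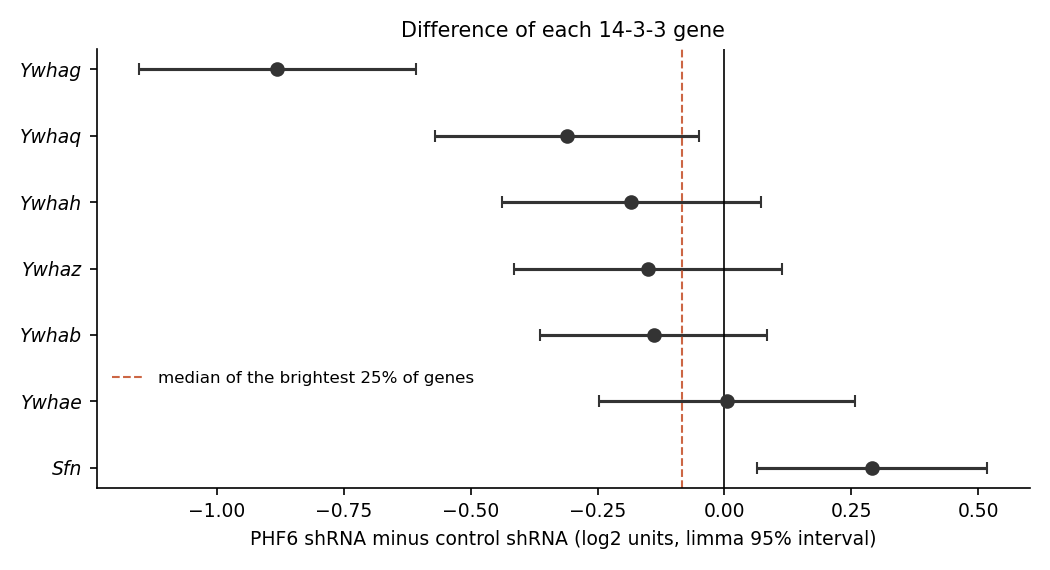
Difference of each gene (PHF6 shRNA minus control shRNA, log2 units, horizontal axis) with limma's 95% interval, 4 arrays. The dashed line is the median of the brightest 25% of genes, -0.08. Of the members other than Ywhag, only Ywhaq and Sfn have intervals that leave out 0, before any adjustment over genes. The interval of Ywhag leaves out 0 too, but that gene was singled out for its difference, so this is no test.

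Of the 10 neuronal markers 8 had a negative difference, with a median of -0.15 log2 units. Among all genes 52.3% were negative (median -0.01), and among the brightest 25% of genes 66.0% were (median -0.08). The summed intensity of the neuronal markers was 12920 and 12912 in the control arrays against 11630 and 11827 with PHF6 shRNA. All 7 astrocyte markers measured had a positive difference, with a median of 0.14, and their sum ran from 576 to 1086 with control shRNA and from 795 to 1309 with PHF6 shRNA. The glutamate transporter gene Slc1a2 was the only one of them without overlap, at 140 and 210 with control shRNA against 318 and 357 with PHF6 shRNA. Slc1a3 read 254 and 622 in control duplicates 1 and 2, and 278 and 665 in PHF6 shRNA duplicates 1 and 2. Every astrocyte marker measured read higher in duplicate 2 than in duplicate 1 in both groups, so the sums vary with duplicate number too. Of the astrocyte markers 3 exceeded background on all 4 arrays, Aqp4 on 3 arrays, and Gfap, Gja1 and Fgfr3 on 2. Of 7 microglial markers 5 exceeded background on no array, and of 7 endothelial and fibroblast markers 3. Oligodendrocyte lineage markers (4 of 7 negative, median -0.03) and progenitor markers (3 of 7 negative, median 0.05) were mixed between the groups. Their sums too were higher in duplicate 2 than in duplicate 1. For progenitor markers they were 444 and 673 in control duplicates 1 and 2, and 386 and 745 with PHF6 shRNA. For oligodendrocyte lineage markers they were 314 and 397, and 295 and 389. In such bulk RNA fewer neurons and less RNA per neuron cannot be told apart, and the part of cell makeup in the Ywha values was not tested.

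Cross-signal is a further limit. RefSeq names 10 pseudogenes after members, 5 of them after Ywhaq, 2 after Ywhaz and 1 each after Ywhag, Ywhah and Sfn. The family's coding sequences are alike, and the probes' own sequences were not used here, so signal shared between copies was not tested.

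The partners of 14-3-3 proteins were described through 8 lists, with 93 of 101 genes measured. Of these, 51 had a negative difference, the median was -0.05 log2 units, and none passed the adjusted threshold (limma), while 24 (25.8%) had an unadjusted p under 0.05, against 10.8% of all genes and 22.7% of the brightest 25%. In none of the lists did a gene reach the difference of Ywhag. That gene was singled out for its difference, and only 12 of 17245 genes reached it, Ywhag included. Their absence from the lists therefore says little about the partners.

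The first list holds kinases that phosphorylate clients so that 14-3-3 proteins can bind. Of 22 measured 14 had a negative difference, with a median of -0.13, and 6 (27.3%) had an unadjusted p under 0.05, against the 10.8% and 22.7% just given. Prkaa1, a catalytic subunit of the energy sensor AMPK, read 184 and 206 with control shRNA and 114 and 141 with PHF6 shRNA, a difference of -0.62 ± 0.13 log2 units. Sik2, a salt-inducible kinase that acts on the CREB coactivators, read 301 and 306 against 191 and 229, a difference of -0.54 ± 0.11. Mark4, a microtubule affinity regulating kinase, read 159 and 165 against 110 and 115, a difference of -0.52 ± 0.08. Akt2, a kinase of insulin signalling, read 276 and 263 against 178 and 200, a difference of -0.51 ± 0.10. Their limma adjusted p ran from 0.23 to 0.24, and arrays without overlap were a condition for naming them. Prkd1, a protein kinase D gene added after its values were seen, went the other way, at 0.44 with an unadjusted limma p of 0.0085. Prkaa2, the other AMPK catalytic subunit gene, was in the list too and was likewise added afterwards. It was far brighter than Prkaa1, at 6011 and 5642 with control shRNA and 5989 and 5917 with PHF6 shRNA (0.03 ± 0.08). The list median was -0.22 without control duplicate 1, and became -0.05 when control duplicate 2 was left out and -0.07 when PHF6 shRNA duplicate 1 was.

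Another list holds regulators of 14-3-3 binding, and in it the 3 c-Jun N-terminal kinase genes all read lower with PHF6 shRNA, without overlap. These kinases phosphorylate 14-3-3 proteins and can release their clients. Mapk8 (JNK1) read 1330 and 1226 with control shRNA and 1046 and 1037 with PHF6 shRNA, a difference of -0.29 ± 0.09. Mapk9 (JNK2) read 584 and 618 against 460 and 465, a difference of -0.38 ± 0.08. Mapk10 (JNK3), the form typical of neurons, read 757 and 657 against 525 and 562, a difference of -0.38 ± 0.11. Prkcd, a protein kinase C, went the other way, from 39.5 and 39.3 to 52.3 and 47.4, near background. Their limma adjusted p ran from 0.25 to 0.34, and none passed. The list of 7 had a median of -0.29, with 4 negative and 3 positive differences. In it 4 of 7 genes were lower without overlap, against 21.7% of all genes and 38.9% of the brightest 25%. Arrays without overlap were a condition for naming a gene.

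Clients went in both directions. Signalling clients were negative in 7 of 17, with a median of 0.06 that was 0.12 under a further quantile normalization and 0.13 under cyclic loess. Rgs7, a regulator of G-protein signalling enriched in brain, read 365 and 355 with control shRNA and 475 and 432 with PHF6 shRNA (0.33 ± 0.09). Grb10, an adaptor of the insulin receptor, read 38.7 and 39.7 against 51.9 and 47.2, near background (0.34 ± 0.09). Rptor, the mTORC1 subunit Raptor, and Pfkfb2, a glycolytic regulator, differed by -0.24 ± 0.08 and -0.34 ± 0.12. None of the 4 passed, with limma adjusted p from 0.31 to 0.41.

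Transcription clients, which 14-3-3 proteins can hold in the cytoplasm, were negative in 8 of 15, with a median of -0.06 that became 0.02 without control duplicate 2. The class IIa histone deacetylase genes Hdac4 and Hdac5 differed by -0.38 ± 0.10 and -0.28 ± 0.11. Hdac4 read 214 and 187 with control shRNA and 153 and 153 with PHF6 shRNA, and Hdac5 read 347 and 327 against 298 and 257. Foxo4, a forkhead factor, read 32.4 and 32.0 against 40.5 and 38.5 and exceeded background on 2 arrays (0.29 ± 0.08). Their limma adjusted p ran from 0.29 to 0.44.

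Cytoskeletal clients were negative in 6 of 9, with a median of -0.07, which was -0.17 with PHF6 shRNA duplicate 2 left out, -0.11 without control duplicate 1, and -0.03 without either of the other arrays. Arhgef2, a microtubule-bound exchange factor, read 81.9 and 93.0 with control shRNA and 57.6 and 65.5 with PHF6 shRNA, a difference of -0.51 ± 0.11 (limma adjusted p = 0.25). Ctnnd2, the neuronal delta-catenin, read 616 and 704 against 508 and 571, a difference of -0.29 ± 0.11 (limma adjusted p = 0.44). Both had arrays without overlap, and neither passed.

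Migration partners of the epsilon form were negative in 5 of 8, with a median of -0.09. Leaving out PHF6 shRNA duplicate 2 gave -0.14, PHF6 shRNA duplicate 1 -0.06 and control duplicate 2 -0.05. Cdk5, the kinase that phosphorylates Ndel1 at the 14-3-3 site, read 405 and 419 with control shRNA and 307 and 342 with PHF6 shRNA, a difference of -0.35 ± 0.09 (limma adjusted p = 0.31). The other 7 genes had unadjusted p above 0.05.

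Channel and transmitter clients were positive in 6 of 9, with a median of 0.10 that became -0.01 without PHF6 shRNA duplicate 1 and 0.04 without control duplicate 2. Kcnk9, the TASK-3 leak potassium channel whose surface delivery needs 14-3-3 binding, read 1056 and 1111 with control shRNA and 1285 and 1276 with PHF6 shRNA (0.24 ± 0.08, limma adjusted p = 0.40). Cell cycle and cell death clients were negative in 4 of 7, with a median of -0.04. That median was -0.19 without control duplicate 1, -0.14 with PHF6 shRNA duplicate 2 left out and 0.02 under cyclic loess. Cdc25a, a phosphatase that opens the cell cycle, differed by -0.24 ± 0.09 (limma adjusted p = 0.42).

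**Figure D4:**
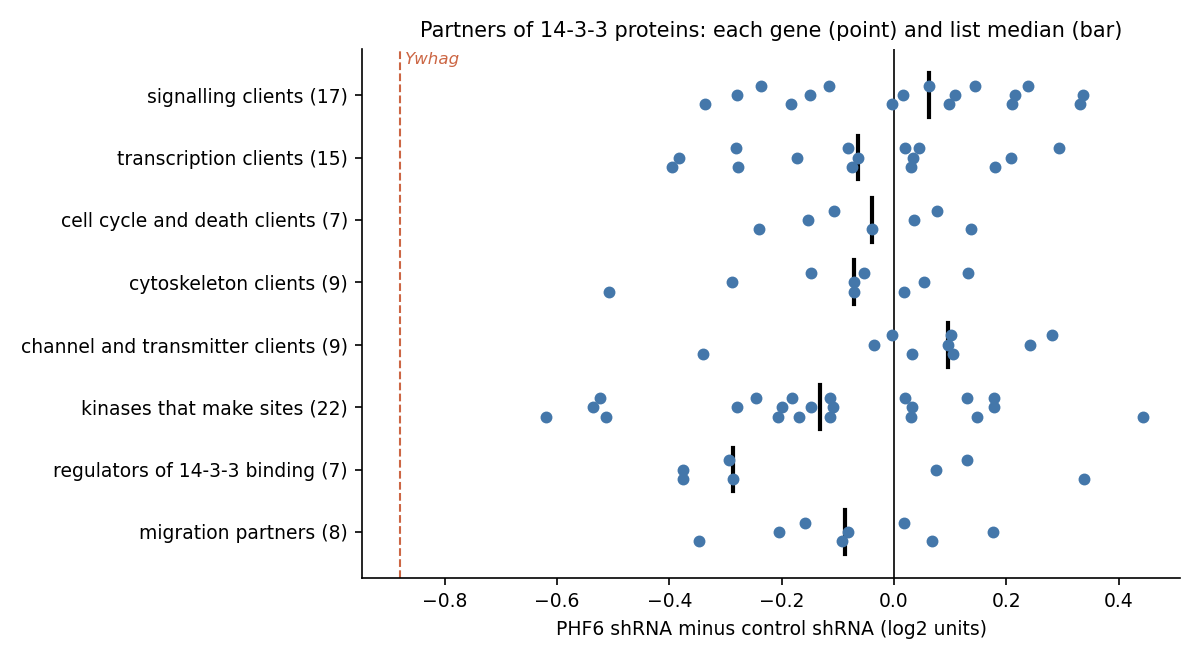
Difference of each measured partner gene (points, PHF6 shRNA minus control shRNA, log2 units, horizontal axis) by list, with the number measured in brackets and a bar at the list median. The dashed line is Ywhag at -0.88, a gene singled out for its difference. The medians run from -0.29 (regulators of 14-3-3 binding) to 0.10 (channel and transmitter clients).

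Likeness to Ywhag was measured as the Euclidean distance between gene-centred log2 values over the 4 arrays, among 9508 named genes above background on all arrays. The nearest were Scarb2, a lysosomal membrane receptor, at a distance of 0.08, Ndc1, a nuclear pore membrane protein, at 0.13, and Klhl7, a kelch protein, Hivep1, a zinc-finger transcription factor, and Pphln1, periphilin, at 0.14 each. Scarb2 read 299 and 313 with control shRNA and 153 and 184 with PHF6 shRNA. These 5 genes were 1.73-fold to 2.02-fold lower, and a fold near that of Ywhag follows from how they were picked. The nearest member of the family was Ywhaq, at 0.58, with rank 621 among the candidates. With only 4 points this is a description of these arrays.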

How the data were processed

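Total RNA of 4 neuron samples was labelled with whole-transcript kits and hybridised to Affymetrix arrays, per the labels' protocols. The deposited intensity values come from RMA, run by the authors, as the submitters' processing notes say, with the version not given in the sources used here. The method corrects background, normalizes by quantiles and summarises probe sets, and it compresses the differences of dim ones. The intensities (8.57 to 6121) are linear and were put on the log2 scale. Precision is limited by the number of arrays.

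Of 29214 rows, 18644 carry a single gene symbol. Of those rows, 18460 were matched by gene identifier to RefSeq (GRCr8) and took the symbol given there. The brightest probe set stood for each of 17245 genes. Both groups entered a limma fit (version 3.58.1, R 4.3.3; lmFit, eBayes, two-sided, without covariates), and p-values were adjusted by Benjamini-Hochberg over every gene. Members and lists were chosen with earlier results of these data known. From each partner list, up to 4 genes with an unadjusted p under 0.05 and arrays without overlap were named, by smallest p. Alternatives were a replicate block, leaving out each array, 3 scalings, 2 filters on dim genes, 2 variance priors, probe set means, array weights and the 90th percentile as background. The fit was tested on simulated data.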

Additional observations from a re-analysis of the deposited data

How the results depend on the processing

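The count of genes past the adjusted threshold was 0 in 11 of 14 alternatives and ranged from 0 to 90 when 1 array was left out, with 2 genes passing without PHF6 shRNA duplicate 1. A fit that took the duplicate number as a block called 909 genes, and none of the members other than Ywhag. The labels do not say whether the numbers pair arrays. Same-numbered arrays deviated together (r = 0.57 across genes, which are not independent replicates), and 684 genes differed by number. The count of members with a negative difference was 5 or 6 in all alternatives. Only leaving out an array or rescaling could change it. The block, the filters, the variance priors, the probe set means and the array weights left every member's difference as it was. The difference of Ywhae ranged from -0.084 to 0.094 when 1 array was left out and was -0.00037 after median centring. The cause was not tested. All 7 members stayed above the 90th percentile of the receptor genes on all 4 arrays. Sfn, near background, is the member whose fold is least exact.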

Other observations

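The measured protein-coding genes nearest to Ywhag on the GRCr8 assembly gave values unlike it. On one side Ssc4d read 42.5 and 41.9 intensity units with control shRNA and 46.2 and 45.7 with PHF6 shRNA, a difference of 0.12 ± 0.08 log2 units. On the other side Hspb1, a small heat shock protein gene, exceeded background on no array, and beyond it Srrm3, a splicing factor of neurons, differed by -0.17 ± 0.12 (limma adjusted p = 0.77). Nearest to Ywhae lie Crk, an adaptor of the reelin pathway, at 0.18 ± 0.14 (limma adjusted p = 0.81), and Doc2b, a calcium sensor of exocytosis, at 0.03 ± 0.09. Beside Ywhab, Rims4, a presynaptic active zone gene, read 71.4 and 70.0 with control shRNA and 86.4 and 90.4 with PHF6 shRNA (0.32 ± 0.08, limma adjusted p = 0.29), opposite in sign to Ywhab. Some other neighbours had the sign of their member. Beside Ywhaq, Taf1b differed by -0.29 ± 0.09 (limma adjusted p = 0.36). Beside Ywhah, Depdc5 differed by -0.22 ± 0.09 (limma adjusted p = 0.47). These neighbours were looked up after the values of the family were seen.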
